A study of Mus musculus with 6 samples.

Results

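The genes described here encode myosin light chains, and they were chosen by name from the expressed genes of a CNN3 knockdown in C2C12 cells, a mouse myoblast line that fuses into myotubes in low serum. The 8 genes are Mylpf, Myl1, Myl4, Myl6b, Myl6, Myl9, Myl12a and Myl12b, out of 11835 genes with a value, and all 8 passed the filter on low values. They were split by where their proteins are known to work, into 3 sarcomeric chains (Mylpf, Myl1 and Myl4), 4 chains of non-muscle and smooth muscle myosin (Myl6, Myl9, Myl12a and Myl12b), and Myl6b, which is made in both kinds of cell. Of the other light chain genes that were looked for, Myl2, Myl3, Myl5, Myl7 and Myl10 were not listed. Total RNA was sequenced in 6 libraries, 3 from cells given NC siRNA (siNC) and 3 from cells given CNN3 siRNA (siCNN3). Both groups were grown in medium with 10% fetal bovine serum and differentiated in 2% horse serum, and the labels call the cells mouse myotubes of the C2C12 line. The labels give neither the harvest time nor which CNN3 siRNA was used. Since nothing beyond the replicate numbers says that the cultures were independent, p-values measure the spread between these samples, which may be technical.

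Muscle and non-muscle myosins are built alike: each heavy chain carries a motor head and a neck, and the neck is wrapped by an essential and a regulatory light chain. The essential chain stiffens the neck. The regulatory chain is the one that kinases phosphorylate, and in smooth muscle and non-muscle cells this phosphorylation switches the motor on, while in skeletal muscle calcium acts on the thin filament and phosphorylation only tunes force. Myoblasts carry the non-muscle chains, and sarcomeric chains are added as the cells differentiate and fuse.

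The values are FPKM (fragments scaled to transcript length and to the fragments mapped in a library), which take account of length, so that levels can be compared between genes. Values of all transcripts of a gene were summed. Read numbers are not given in the sources used here, so the depth is unknown and no counting error can be stated. Fold changes are differences of mean log2(FPKM + 1), which understates the change of low genes, and a gene was called when its adjusted p from limma over 11593 tested genes was below 0.05. Cnn3, the targeted gene, encodes calponin 3, an actin-binding protein, and measured 62.8, 61.4 and 62.8 FPKM in the siNC libraries, against 19.0, 39.2 and 25.6 FPKM in the siCNN3 libraries. Its siCNN3 mean was 44.8% of the siNC mean and the groups did not overlap, but it was not called (log2 fold change -1.19, limma adjusted p = 0.0669).

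How far reads can tell these genes apart depends on their sequence. The 4 regulatory chains are compared below over 60 coding bases around the serine codon that light chain kinases phosphorylate, all within exon 2, from the GENCODE transcripts of mouse build GRCm38. Capitals mark bases that differ from Myl12b. The stretches lie at chr7:127212891-127212950 (plus strand) for Mylpf, chr2:156778590-156778649 (plus) for Myl9, chr17:70996776-70996835 (minus) for Myl12a and chr17:70977127-70977186 (minus) for Myl12b.
Mylpf: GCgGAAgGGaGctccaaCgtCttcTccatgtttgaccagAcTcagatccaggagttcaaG
Myl9: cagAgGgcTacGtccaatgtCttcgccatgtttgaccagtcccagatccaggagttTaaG
Myl12a: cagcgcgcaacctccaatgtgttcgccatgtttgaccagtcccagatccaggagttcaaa
Myl12b: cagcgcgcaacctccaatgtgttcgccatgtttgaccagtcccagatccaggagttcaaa
Mylpf differs from Myl12b at 14 of the 60 bases, Myl9 at 7 and Myl12a at 0. Over the whole coding sequence Myl12a and Myl12b were 96.5% identical, and 174 of the 467 stretches of 50 bases in Myl12a are also in Myl12b. Their separate values are therefore uncertain, since reads from those stretches can be split between both. No other pair within the regulatory or the essential chains shared a 50-base stretch: Mylpf was 65.7% to 66.9% identical to the 3 other regulatory chains, and Myl6 and Myl6b, the closest essential pair, were 81.2% identical.

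In siNC cells the non-muscle chains were far more abundant than the sarcomeric ones. Myl6 was highest at 665 ± 36.2 FPKM (SD, n = 3), followed by Myl12a at 370.5 ± 129.8 and Myl12b at 219 ± 21.4. Mylpf came next at 28.2 ± 7.26 FPKM, then Myl1 at 9.18 ± 1.76, Myl4 at 6.55 ± 1.43, Myl9 at 5.49 ± 1.93 and Myl6b at 4.32 ± 2.40. Neighbours among the 5 highest did not overlap in their siNC ranges, whereas Myl1 and Myl4, Myl4 and Myl9, and Myl9 and Myl6b overlapped in their ranges. In siCNN3 cells the 5 highest kept their order, and Myl4 moved to the lowest place at 2.11 ± 0.413 FPKM, below Myl6b at 3.21 ± 1.45 and Myl9 at 2.92 ± 0.265. The ranges of Myl4 and Myl9 did not overlap in siCNN3, while those of Myl1 and Myl6b, of Myl6b and Myl9, and of Myl4 and Myl6b did.

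**Figure D1:**
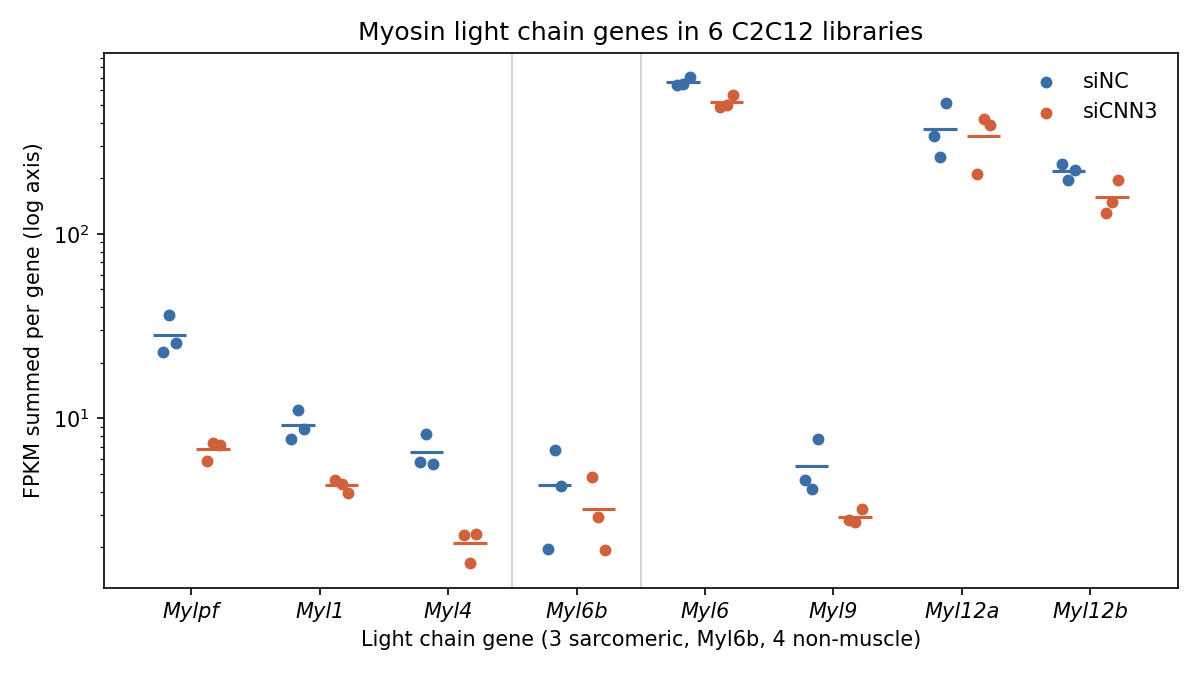
FPKM of the 8 light chain genes (log axis) in each of 3 siNC and 3 siCNN3 libraries, with the group mean as a line. The siCNN3 points of Mylpf lie between 5.88 and 7.36 and its siNC points between 22.8 and 36.5, while the points of Myl12a and Myl6b overlap between groups.

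The 3 sarcomeric chains fell in siCNN3, and none of the others was called. Mylpf fell to 24.1% of its siNC mean, Myl4 to 32.2% and Myl1 to 47.1%. Lower calls were rare among all genes, with 39 of 11593 (0.336%), while 3 of 3 sarcomeric chains and 0 of 4 non-muscle chains were called lower. The difference between these sets was not tested, and the 95% interval of Myl9 (-1.22 to -0.16) overlapped that of Myl1 (-1.32 to -0.52). No sarcomeric chain was called without siNC replicate 3, without siCNN3 replicate 2 or with each gene's own spread. With the replicate number as a block in the fit, only Mylpf was called. Quantile normalization called 92 genes lower and 199 higher, against 39 and 200, and leaving out 1 library gave 4 lower genes (without siNC replicate 3 or siCNN3 replicate 2) to 161 (without siCNN3 replicate 3). All 3 siCNN3 values lay below all 3 siNC values in 6 of the 8 light chain genes, against 9.35% of all tested genes, and the fold change was below 0 in 8 of 8. None was called higher, against 1.73% of all tested genes, and in 0 of 8 did all siCNN3 values lie above all siNC values, against 13.8%. The median log2 fold change was -1.27 over the sarcomeric chains, -0.42 over the non-muscle chains and 0.03 over all genes tested. An exact permutation test of 3 against 3 libraries cannot give a p below 0.1, so single values that separate the groups were not tested further in that way. In these bulk samples fewer cells of a type and less RNA per cell cannot be told apart.

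**Figure D2:**
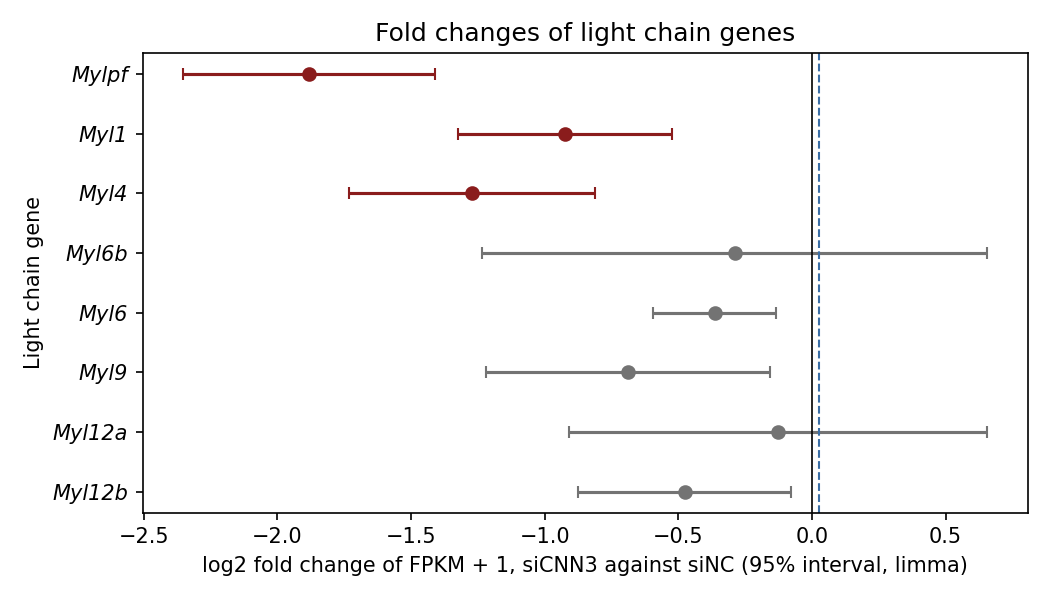
Log2 fold change of FPKM + 1 in siCNN3 against siNC for the 8 light chain genes, with 95% intervals from limma, called genes in dark red and the median of all tested genes as a dashed line at 0.03. Intervals of Mylpf, Myl4 and Myl1 end at -1.41, -0.81 and -0.52, and those of Myl6b and Myl12a span 0.

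Mylpf (ENSMUSG00000030672.12, chromosome 7, 127208890 to 127214298, plus strand) encodes the regulatory light chain of fast skeletal muscle. Its level was 22.8, 36.5 and 25.4 FPKM in siNC replicates 1 to 3 and 5.88, 7.36 and 7.16 FPKM in siCNN3 replicates 1 to 3. The groups were wide apart, and siNC replicate 2 was the highest of all. The log2 fold change was -1.88 (SE 0.20, limma adjusted p = 0.0099), the 10th lowest fold change of the genes tested. The call was lost without siNC replicate 3 (limma adjusted p = 0.0642) and without siCNN3 replicate 2 (0.0520), and it held without each of the other libraries. It was also lost when each gene's own spread was used (0.109). Nearly all of the signal came from 1 transcript, Mylpf-201, which held 96.2% of the gene's FPKM in siNC and 92.1% in siCNN3.

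The 250 bases before the Mylpf start site are shown because this gene had the largest decrease of the family, and because they hold an E-box, the kind of short motif that MyoD and myogenin bind. They come from RefSeq promoter windows on GRCm38.p6 (chr7:127211358-127211607, plus strand), and capitals mark the match to CAGCTG, whose first base lies 51 bases upstream of the start.
Mylpf promoter: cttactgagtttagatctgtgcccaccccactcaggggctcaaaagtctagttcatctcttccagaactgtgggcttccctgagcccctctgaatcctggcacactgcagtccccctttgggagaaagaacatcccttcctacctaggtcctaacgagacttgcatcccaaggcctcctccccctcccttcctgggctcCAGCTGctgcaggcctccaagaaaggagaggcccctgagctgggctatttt
Each window holds 250 bases before and 50 after a start site, all 8 genes have at least 1, and both strands were searched. CAGCTG, a special case of the general E-box CANNTG, was also found in the windows of Myl1 and Myl12a, and 16.3% of all 32851 mouse windows hold it, while CANNTG is in 72.3%. The MEF2 site, bound by another family of muscle regulators, was in 0 windows of the light chain genes and in 3.19% of all windows. A match only says that the letters are there, and the windows do not cover every start in use. The Myl4 window surrounds a start at 104550663, far upstream of its listed transcripts, which start at 104577281 and 104576985, and the Myl1 window surrounds only the upstream start, so the starts that gave most of the FPKM of Myl1 were not searched.

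Myl1 (ENSMUSG00000061816.15, chromosome 1, 66924295 to 66945404, minus strand) encodes the essential light chains of fast muscle, a long form from an upstream start and a short form from a start inside the gene. Levels of Myl1 were 7.70, 11.1 and 8.72 FPKM across the siNC libraries and 4.63, 4.38 and 3.94 FPKM across the siCNN3 libraries. The groups did not overlap. The log2 fold change was -0.92 (SE 0.17, limma adjusted p = 0.0494), which lies close to the threshold. The call was lost without each library in turn (limma adjusted p from 0.0575 without siCNN3 replicate 3 to 0.196 without siCNN3 replicate 2, with 0.0765, 0.112 and 0.182 without siNC replicates 1, 2 and 3 and 0.161 without siCNN3 replicate 1), and the log2 fold change then ranged from -1.03 to -0.79. It was also lost with each gene's own spread (adjusted p = 0.144), with the replicate number as a block (0.149) and with no filter on low values (0.0514). The most abundant transcript alone was not called either (log2 fold change -0.34, limma adjusted p = 0.617).

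The upstream and downstream starts of Myl1 lie 9789 bases apart and give different first coding bases, shown here because the starts differed in their values. From GENCODE on GRCm38, the coding part of the first exon of Myl1-201 (chr1:66944792-66944905, minus strand) is followed by the coding bases of the first 2 exons of Myl1-202, which are spliced together from between chr1:66934518 and 66935278. Both are in lower case, since nothing was marked in them.
Myl1-201: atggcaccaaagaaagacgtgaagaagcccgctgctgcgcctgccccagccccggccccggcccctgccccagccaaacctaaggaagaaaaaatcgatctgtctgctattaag
Myl1-202: atgtccttcagtgctgaccagattgccg
The upstream start gave 1.28, 3.41 and 2.00 FPKM in siNC, against 0.0073, 0 and 1.00 FPKM in siCNN3. The downstream starts together (Myl1-202, Myl1-203 and Myl1-207) gave 6.42, 7.71 and 6.73 FPKM in siNC, against 4.63, 4.38 and 2.94 FPKM in siCNN3. Neither overlapped between groups. The upstream start gave 16.7%, 30.6% and 22.9% of the gene's FPKM in siNC and 0.16%, 0% and 25.4% in siCNN3, so its share did overlap, with siCNN3 replicate 3 within the siNC range. Myl1-201 on its own was not called (log2 fold change -1.30, limma adjusted p = 0.294 over 21658 transcripts). A listed value of 0 may reflect a failed estimate. With transcripts that are 0 in any library left out, Myl1 was not called (log2 fold change -0.69, limma adjusted p = 0.146).

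Myl4 (ENSMUSG00000061086.12, chromosome 11, 104550663 to 104595753, plus strand) encodes the essential light chain of atrial and embryonic muscle, which skeletal muscle cells make early in differentiation. The siNC libraries held 5.81, 8.19 and 5.64 FPKM of it, and the siCNN3 libraries 2.33, 1.63 and 2.36 FPKM. The lowest siNC value was more than the highest siCNN3 value, so the groups were separate. The log2 fold change was -1.27 (SE 0.19, limma adjusted p = 0.0304). The call held without siCNN3 replicate 3 (0.0290) and was lost without siNC replicates 1, 2 and 3 (limma adjusted p = 0.0787, 0.0633 and 0.107) and without siCNN3 replicates 1 and 2 (0.111 and 0.135). It was also lost with each gene's own spread (0.137) and with the most abundant transcript alone (0.0770). Its 2 listed transcripts, Myl4-202 and Myl4-203, have the same coding sequence and differ in their 5′ exons. Myl4-202 ranged from 3.61 to 5.55 FPKM in siNC and from 0.29 to 1.32 FPKM in siCNN3, and Myl4-203 from 1.56 to 2.64 and from 1.04 to 1.34 FPKM. Both were separate between the groups, and neither was called (limma adjusted p = 0.118 and 0.502).

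Myl6b (ENSMUSG00000039824.4, chromosome 10, 128494157 to 128498685, minus strand) encodes an essential chain found in slow muscle and in non-muscle cells. Values scattered in both groups, with 1.96, 6.75 and 4.26 FPKM in siNC against 4.78, 2.92 and 1.92 FPKM in siCNN3. The groups overlapped almost fully, and the log2 fold change of -0.29 had a 95% interval from -1.23 to 0.66 (limma adjusted p = 0.763). It had the largest relative spread of the essential chains.

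Myl6 (ENSMUSG00000090841.2, chromosome 10, 128490860 to 128494145, minus strand) encodes the essential light chain of non-muscle and smooth muscle myosin, and it held 51.1% ± 4.0 of all light chain FPKM in siNC and 50.5% ± 6.04 in siCNN3 (SD, n = 3). The siNC libraries held 640.3, 648 and 706 FPKM of it, and the siCNN3 libraries 488, 499 and 564 FPKM. The groups did not overlap, with a siCNN3 mean of 77.8% of the siNC mean. It was not called (log2 fold change -0.36, 95% interval -0.59 to -0.13, limma adjusted p = 0.127).

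Myl6 makes proteins with different ends, since 1 exon of 45 bases (exon 6 of Myl6-206, chromosome 10, 128491720 to 128491764) is used or skipped. The last 26 coding bases of both forms are shown to let the ends be compared, from chr10:128491739-128491764 for Myl6-206 and chr10:128491008-128491033 for Myl6-201 (minus strand, GRCm38). Capitals mark the 14 bases that differ.
Myl6-206: CATttgtGAggCATAtCctgTCGggG
Myl6-201: AGCttgtCCggATGGtGctgAATggC
The shares that follow are of Myl6-206 and Myl6-201 alone and leave out Myl6-211 (11.3% of the gene's FPKM in siNC), Myl6-205 and Myl6-202. Myl6-206, with the exon, made up 82.3%, 83.3% and 82.7% of the sum of both forms in siNC and 87.6%, 83.6% and 83.9% in siCNN3. The siCNN3 shares were all above the siNC shares, but replicates 2 and 3 of siCNN3 lay close to them. Myl6-206 ranged from 440.6 to 499 FPKM in siNC and from 366 to 398 FPKM in siCNN3, and Myl6-201 from 94.2 to 104 and from 53.3 to 76.0 FPKM. Neither was called (limma adjusted p = 0.253 and 0.262).

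Myl9 (ENSMUSG00000067818.6, chromosome 2, 156775420 to 156781658, plus strand) encodes the regulatory light chain of smooth muscle myosin. Its level was 4.62, 4.15 and 7.71 FPKM in siNC replicates 1 to 3 and 2.80, 2.74 and 3.23 FPKM in siCNN3 replicates 1 to 3. The groups did not overlap, and siNC replicate 3 stood above the other siNC libraries. With a siCNN3 mean of 53.2% of the siNC mean, it was not called (log2 fold change -0.69, 95% interval -1.22 to -0.16, limma adjusted p = 0.195). Without siNC replicate 3 the log2 fold change was -0.46 (limma adjusted p = 0.395). Its promoter is shown beside that of Mylpf since it holds a CArG box, the motif bound by serum response factor at many smooth muscle and cytoskeletal genes. The 206 bases before the first annotated exon (RefSeq window, GRCm38.p6, chr2:156775214-156775419, plus strand) have the box in capitals, 161 bases upstream of the RefSeq start.
Myl9 promoter: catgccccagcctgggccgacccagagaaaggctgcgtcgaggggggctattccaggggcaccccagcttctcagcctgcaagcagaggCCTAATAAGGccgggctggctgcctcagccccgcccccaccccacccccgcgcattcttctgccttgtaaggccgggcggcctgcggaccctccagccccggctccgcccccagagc
A CArG box is in 1.63% of all 32851 windows, and among the light chain genes it was also found in 1 of the 2 windows of Myl6. That window surrounds a start at 128493009, downstream of the starts of the listed Myl6 transcripts (128493847 to 128493875). The other window, which covers those starts, holds no CArG box.

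Myl12a (ENSMUSG00000024048.15, chromosome 17, 70993656 to 71002878, minus strand) and Myl12b (ENSMUSG00000034868.9, chromosome 17, 70973133 to 70990890, minus strand) are neighbours and encode the near-identical regulatory chains of non-muscle myosin. Myl12a measured 338, 260.1 and 513 FPKM in siNC, against 212, 419.8 and 389 FPKM in siCNN3. Myl12b measured 239, 196.8 and 221 FPKM in siNC, against 130.5, 149.7 and 196.8 FPKM in siCNN3. Myl12a overlapped between groups, and Myl12b was separate by a margin that rounding hides. Neither was called, with a log2 fold change of -0.13 for Myl12a (95% interval -0.91 to 0.66, limma adjusted p = 0.884) and -0.48 for Myl12b (-0.87 to -0.08, limma adjusted p = 0.230). Without siCNN3 replicate 3, Myl12b was called (log2 fold change -0.64, limma adjusted p = 0.0469). Without siNC replicate 3 or siCNN3 replicate 1, the value of Myl12a was 0.14 or 0.18. Since reads can be split between the pair, their sum was also taken. It was 577, 457 and 734 FPKM in siNC and 343, 569 and 586 FPKM in siCNN3, and the groups overlapped. Much of the spread of Myl12a came from Myl12a-201, which went from 22.7 to 201 FPKM among siNC libraries.

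Summed over genes, sarcomeric light chains came to 36.3, 55.8 and 39.8 FPKM in siNC, against 12.8, 13.4 and 13.5 FPKM in siCNN3. Non-muscle chains came to 1222, 1109 and 1448 FPKM in siNC, against 834, 1072 and 1153 FPKM in siCNN3. The first sum was separate between the groups and the second overlapped. Sarcomeric chains gave 2.88%, 4.76% and 2.67% of all light chain FPKM in siNC (mean 3.44% ± 1.15, SD, n = 3) and 1.51%, 1.23% and 1.15% in siCNN3 (1.30% ± 0.187). Among the regulatory chains Mylpf gave 3.77%, 7.33% and 3.31% in siNC and 1.67%, 1.27% and 1.20% in siCNN3. Among the essential chains Myl1 and Myl4 gave 2.06%, 2.87% and 1.98% in siNC and 1.39%, 1.18% and 1.10% in siCNN3. All 3 shares were lower in every siCNN3 library than in any siNC library. The difference in the share of Mylpf was -3.42 percentage points, and -2.16 without siNC replicate 2. The ratio of all essential to all regulatory FPKM was 1.08, 1.35 and 0.945 in siNC and 1.42, 0.877 and 0.960 in siCNN3, and overlapped. Within the sarcomeric chains, the ratio of Mylpf to the sum of Myl1 and Myl4 was 1.69, 1.89 and 1.77 in siNC and 0.844, 1.22 and 1.14 in siCNN3, which was separate between the groups. The sum of all light chains was 1308 ± 166 FPKM in siNC and 1036 ± 165 FPKM in siCNN3.

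**Figure D3:**
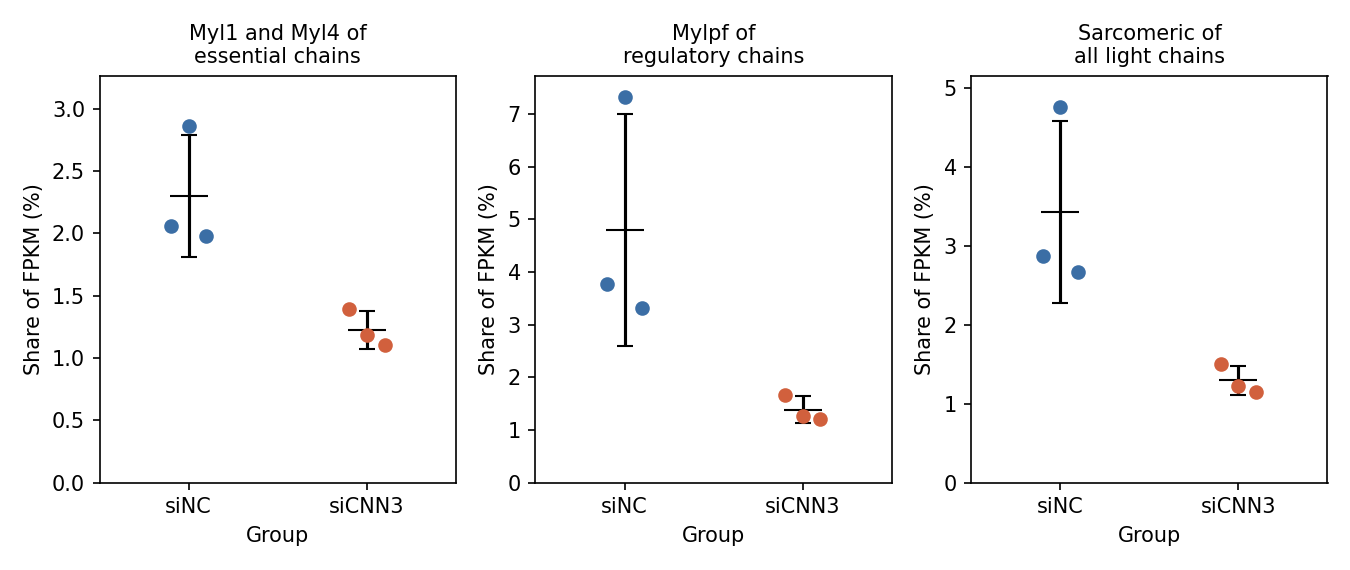
Share of FPKM (%) given by the sarcomeric chains among essential, regulatory and all light chains, in each siNC and siCNN3 library, with the mean and SD (n = 3) in black. All siCNN3 points lie below all siNC points, and siNC replicate 2 is the highest in each panel.

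Single transcripts were fitted on their own as well. Of 22 listed light chain transcripts, 21 passed the filter on low values, and 19 of these had a log2 fold change below 0. Only Mylpf-201 was called (log2 fold change -1.94, limma adjusted p = 0.0346), with 21.5, 36.1 and 24.2 FPKM in siNC against 5.88, 6.11 and 6.69 FPKM in siCNN3. Among all 21658 transcripts tested 0.0785% were called lower. The fold changes above 0 were those of Myl12a-201 and Myl12a-204, at 0.67 and 0.17.

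**Figure D4:**
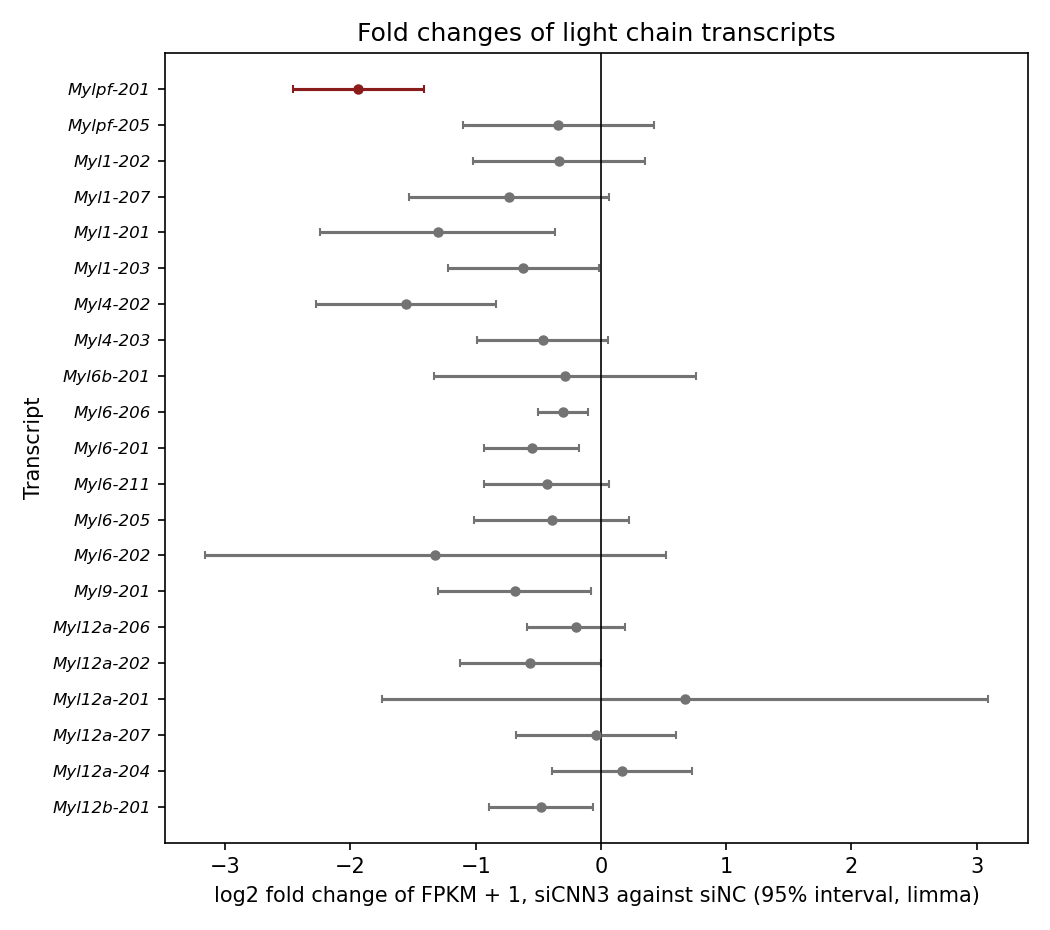
Log2 fold change of FPKM + 1 in siCNN3 against siNC for the 21 tested light chain transcripts, with 95% intervals from limma and the called transcript in dark red. Mylpf-201 stands at -1.94, and the interval of Myl12a-201 is the widest.

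Light chains work on heavy chains, of which few sarcomeric ones were listed. Of 9 sarcomeric heavy chain genes 2 were listed, and Myh3, the embryonic heavy chain, fell from 1.96, 3.04 and 2.22 FPKM in siNC to 0.209, 0.245 and 0.451 FPKM in siCNN3 (log2 fold change -1.38, limma adjusted p = 0.0193). Myh7b was not called (limma adjusted p = 0.964), and the heavy chains of adult fast and slow fibres (Myh1, Myh2, Myh4 and Myh7) were not listed. A gene that is not listed may still be expressed. By qRT-PCR in differentiating cells, the paper found less Myh1, Myh4 and Myh7 mRNA after CNN3 knockdown. Of the non-muscle heavy chains, Myh9 was at 357 ± 35.3 FPKM in siNC and 332 ± 26.4 in siCNN3, and Myh10 at 29.1 ± 2.93 and 23.4 ± 1.60 FPKM (SD, n = 3). Neither was called (limma adjusted p = 0.718 and 0.314).

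Kinases and phosphatases set light chain phosphorylation. None of the 11 tested light chain kinases passed, with 10 of 11 below 0 (5335 of 11593 among all genes) and a median log2 fold change of -0.19. In 3 of 11 every siCNN3 value was below every siNC value, against 9.35% of all genes. They were named after their values were seen: Mylk, the light chain kinase of smooth muscle and non-muscle cells (12.5 ± 3.44 FPKM in siNC and 6.66 ± 0.792 in siCNN3, limma adjusted p = 0.134), Dapk2 (11.7 ± 0.928 and 7.39 ± 1.05 FPKM, 0.106) and Cdc42bpg (8.06 ± 1.08 and 5.24 ± 0.0539 FPKM, 0.132). The 2 most abundant were Rock2 (57.2 ± 5.30 FPKM in siNC and 50.8 ± 7.69 in siCNN3), and Dapk3 (27.8 ± 1.24 and 25.9 ± 2.56 FPKM). None of 9 phosphatase genes passed, with 8 of 9 below 0 (5335 of 11593 among all genes) and a median of -0.13. In 1 of them every siCNN3 value was above every siNC value (13.8% of all genes), and in 1 every value was below (9.35%). Named after their values were seen, these were Ppp1r12a, the subunit that targets the phosphatase to myosin (22.7 ± 2.99 FPKM in siNC and 29.3 ± 0.83 in siCNN3, limma adjusted p = 0.248), and Ppp1cc, a catalytic subunit (34.5 ± 3.54 and 26.3 ± 0.342 FPKM, limma adjusted p = 0.187). Ppp1ca, a catalytic subunit of protein phosphatase 1, ranged from 167 to 221 FPKM in siNC and from 162 to 194 in siCNN3, and Ppp1r14b, which encodes an inhibitor of the phosphatase, was at 94.8 ± 20.8 and 80.6 ± 8.01 FPKM.

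Of 7 tested genes for folding, filament assembly and turnover none was called, and in 3 of 7 every siCNN3 value was below every siNC value, against 9.35% of all genes. These 3, named after their values were seen, were Mybph, a thick filament protein (2.00 ± 0.929 FPKM in siNC and 0.629 ± 0.114 in siCNN3), Myom2, a protein of the M-band (1.68 ± 0.557 and 0.788 ± 0.180 FPKM), and Trim63, a ubiquitin ligase of muscle (0.80 ± 0.417 and 0.422 ± 0.0969 FPKM), with limma adjusted p of 0.136, 0.222 and 0.496. Of the most abundant, Hsp90aa1, a chaperone, had a log2 fold change of 0.15 and Mylip, named for its interaction with a regulatory light chain, one of 0.05.

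The marker lists were read beside the light chains, for the label of myotube and for other cells. Of 12 tested myotube markers 2 fell (0.336% of all genes were called lower), 11 had every siCNN3 value below every siNC value (9.35% of all genes) and the median log2 fold change was -0.85. Those called were the troponin T genes Tnnt1, at 6.52 ± 2.88 FPKM in siNC and 1.20 ± 0.136 in siCNN3 (log2 fold change -1.71, limma adjusted p = 0.0332), and Tnnt3, at 9.39 ± 1.70 and 2.66 ± 0.394 FPKM (-1.50, limma adjusted p = 0.0144). The summed FPKM of the list was 162 to 191 in siNC and 115 to 129 in siCNN3. Most of it came from Des (113 to 125 FPKM in siNC and 84.3 to 103 in siCNN3), which was not called. Actn2, Ttn, Neb, Cav3 and Ryr1, which build the sarcomere and its membrane system, were not listed. Of 8 tested markers of undifferentiated myoblasts 0 were called and 6 were below 0 (5335 of 11593 among all genes), with a median of -0.06. Only Myf5 and Vcam1 were above 0. The most abundant, Sdc4 and Itga7, averaged 159 ± 24.9 and 136 ± 15.5 FPKM in siNC against 158 ± 35.0 and 90.1 ± 30.4 FPKM in siCNN3. Of the others, named after their values were seen, Myf5, a myogenic regulator of myoblasts, was at 4.68 ± 1.05 FPKM in siNC and 9.93 ± 4.0 in siCNN3 with overlapping groups (log2 fold change 0.88, limma adjusted p = 0.238). Vcam1 was at 77.5 ± 12 and 98.4 ± 2.70 FPKM with every siCNN3 value above every siNC value (0.35, limma adjusted p = 0.263), and Spry1 was at 8.37 ± 2.65 and 4.21 ± 0.362 FPKM with every siCNN3 value below (-0.81, limma adjusted p = 0.144). Pax7, Pax3, Heyl and Calcr were not listed.

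Of 9 tested smooth muscle and myofibroblast markers 0 were called, 9 were below 0 (5335 of 11593 among all genes) and 3 (Acta2, Lmod1 and Mylk) had every siCNN3 value below every siNC value, against 9.35% of all genes (median -0.45). Acta2, smooth muscle actin, was at 341 ± 92.8 FPKM in siNC and 194 ± 10.8 in siCNN3 (limma adjusted p = 0.132), and Smtn at 62.4 ± 7.50 and 40.0 ± 19.1 FPKM. The defining markers Myh11 and Myocd were not listed. The list's sum was 378 to 556 FPKM in siNC and 273 to 316 FPKM in siCNN3, most of it from Acta2. Of 7 tested blood and immune cell markers 2 fell, against 0.336% of all genes (Hbb-bs and Hbb-bt, the beta globins, with log2 fold changes of -3.27 and -2.56 and limma adjusted p of 0.0263 and 0.0495), and the median was -1.80. All 7 were below 0, and 6 of 7 had every siCNN3 value below every siNC value, against 9.35% of all genes. Their sum was 249 to 680.3 FPKM in siNC and 66.3 to 91.9 FPKM in siCNN3, and 11 of 18 markers were not listed, among them Ptprc, Csf1r and Alas2. Globin levels thus differed between the groups in the direction of the sarcomeric chains, and Hbb-bs was highest in siNC replicate 2 (250.4 FPKM), as was Mylpf. The part of the marker lists in the light chain results was not tested.

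The genes most like each sarcomeric chain were found by the smallest root mean square difference, over 6 libraries, of log2(FPKM + 1) less its siNC mean. Nearest to Mylpf were Enpp2 (difference 0.111), Tnni2 (0.199), Acta1 (0.204), Tnnt1 (0.219) and Steap4 (0.239). Tnni2 and Acta1 encode fast troponin I and skeletal actin, and all 5 were called lower. Nearest to Myl1 were Casq2 (0.0926), Cntf (0.0932), mt-Nd1 (0.101), Nt5dc2 (0.104) and Klhl41 (0.116), of which only mt-Nd1 was called. Nearest to Myl4 were Myh3 (0.144), Idh1 (0.148), Fbxo33 (0.166), Nfrkb (0.175) and Nptx1 (0.183), of which all but Nfrkb were called lower. These distances use the same libraries as the fold changes and describe likeness only.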

How the data were processed

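Total RNA of 3 siNC and 3 siCNN3 samples of C2C12 cells was sequenced. The authors deposited FPKM per Ensembl transcript for the 6 libraries, with 24023 transcripts, and all columns were matched to a sample (0 were not). The submitters' processing notes name Bowtie 0.12.2 and the builds mm8 and mm10, with no role or order. The program that estimated the FPKM and the annotation are not given in the sources used here. Summed FPKM was 322621 to 355591 per library, and the depth is unknown.

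Transcript identifiers were matched without version to GENCODE M21 on GRCm38, which left out 74 (0.159% to 0.220% of a library's FPKM), and FPKM were summed per gene. Genes that averaged 0.5 FPKM or more over the libraries were fitted on log2(FPKM + 1) with limma 3.58.1 in R 4.3.3 (mean-variance trend, Benjamini-Hochberg adjustment, threshold 0.05). The fit was also run on simulated data with independent noise and with increases only. That simulation does not cover decreases, or variation shared by the genes of a library. The study states no test for single genes of the sequencing. The light chain genes and the gene lists were chosen with earlier results of these data known. All 8 light chain genes are named. Of each other list, called genes are named up to the 3 with the largest change, or the 2 with the highest mean where none was called. Genes not listed in the table are named as such, and other genes, such as Myh7b, were named after their values were seen. The result of 1 list is not reported here. For Mylpf, Myl1 and Myl4 the 5 genes with the most similar pattern are named. Alternatives were a pseudocount of 0.1, no filter or one at 5 FPKM, other scalings, the replicate number as a block, limma without trend, the spread of each gene alone, transcripts at 0 left out, the most abundant transcript alone, and each library left out. Sequences were read with Python 3.11.15, and coding sequences were aligned with Biopython 1.88.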

Additional observations from a re-analysis of the deposited data

How the results depend on the processing

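Mylpf, Myl1 and Myl4 kept a log2 fold change below 0 under every alternative that gave a value, and so did Myl6, Myl9 and Myl12b. The reversed values were those of Myl6b without siNC replicate 2 (0.036) and of Myl12a without siNC replicate 3 (0.14) and without siCNN3 replicate 1 (0.18), and the cause was not tested. With the spread of each gene alone, Mylpf (-1.88, adjusted p = 0.109), Myl1 (-0.92, 0.144) and Myl4 (-1.27, 0.137) were not called, and neither was any gene, 0 higher and 0 lower, against 1084 higher and 716 lower at an unadjusted p under 0.05 and 200 and 39 calls by limma. Deviations of genes from their group means correlated by -0.28, 0.31 and -0.02 between same-numbered samples. With 3 libraries a group these values cannot tell whether the samples were paired. With the replicate block 62 genes were higher and 6 lower, Mylpf stayed called (adjusted p = 0.0296), and Myl1 (-0.92, 0.149) and Myl4 (-1.27, 0.1197) were not. Leaving out transcripts at 0 gave 125 higher genes and Myl1 at -0.69 (adjusted p = 0.146). The most abundant transcript alone gave 100 higher and 22 lower genes, Myl1 at -0.34 (0.617) and Myl4 at -1.56 (0.0770). Without a filter Myl1 was at -0.92 (0.0514). With the filter at 5 FPKM, Myl4, Myl6b and Myl9 had no value. Median-of-ratios scaling gave 63 and quantile normalization 92 lower genes, with 219 and 199 higher. Leaving out 1 library gave 16 to 444 higher and 4 to 161 lower genes, both lowest without siNC replicate 3 and highest without siCNN3 replicate 3, and log2 fold changes from -2.02 to -1.69 for Mylpf, -1.03 to -0.79 for Myl1, -1.36 to -1.12 for Myl4, -0.66 to 0.036 for Myl6b, -0.43 to -0.32 for Myl6, -0.84 to -0.46 for Myl9, -0.35 to 0.18 for Myl12a and -0.64 to -0.35 for Myl12b, which was called only without siCNN3 replicate 3 (-0.64, adjusted p = 0.0469). Differences in the shares kept their sign, and that of Mylpf among regulatory chains went from -3.42 points to -2.16 without siNC replicate 2 and to -4.17 without siNC replicate 3. All adjusted p are from limma fits, unmoderated where the spread is of each gene alone. The depth is unknown, and 3 libraries a group limit the precision.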
